A study of Homo sapiens with 6 samples.

Results

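TP63 and TP73, the siblings of p53, and MDM2 and MDM4, the proteins that restrain the family, are 4 of the 65746 genes in the count table of this study. RNA sequencing compared SU-DHL-8 cells kept for 24 h with 100 nM erianin with SU-DHL-8 cells that had received DMSO, the solvent. SU-DHL-8 is an established cell line from a human large B-cell lymphoma, labelled wild type in both groups, and erianin is a bibenzyl from Dendrobium orchids. Each group had 3 libraries from numbered replicate experiments of this 1 line. Whether the 3 came from separate cultures is not stated, and p-values then reflect no more than library-to-library spread, possibly technical. The members were chosen by gene symbol, and TP63 also by its difference between erianin and DMSO, so the differences of the 4 genes are given as descriptions without p-values.

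The p53 family are transcription factors that bind the same DNA element and share target genes of cell cycle arrest and cell death. p63 is known mainly as a regulator of stratified epithelia, and p73 of ciliated epithelia and the nervous system. MDM2 is a ubiquitin ligase that marks p53 for destruction, and MDM4 is its relative that lacks strong ligase activity, binds MDM2 and masks the activation domain of p53. MDM2 is itself a p53 target, which closes a feedback loop through an internal promoter in its first intron.

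The RefSeq windows used here hold 300 bases, from 250 bases before to 50 bases after a transcript start (GRCh38.p14). All 4 genes matched, with 1 window for TP63, 3 for TP73, 4 for MDM2 and 1 for MDM4. The p53 response element, 20 bases long, was searched in each window with at most 3 mismatches. It reads alike on both strands, and the limit on mismatches was set so that the known MDM2 elements were included. Of 35116 windows of this length, 5.20% held at least 1 element and 0.313% held 2 or more. The internal MDM2 window holds 2 elements, at chr12:68808923-68808942 with 2 mismatches and at chr12:68808961-68808980 with 3 mismatches. The internal TP73 window, from which N-terminally shortened forms start, holds 1 element at chr1:3690596-3690615 with 2 mismatches. These windows are shown because they hold letters like the element that the family binds, and the windows of TP63 and MDM4, which hold no match, because all erianin libraries lay below all DMSO libraries for these genes. All lie on the plus strand, and capitals mark the elements. A match is a likeness of letters and was not tested as a binding site. Starts elsewhere in TP63 or MDM4 were not searched, so the lack of a match covers the 1 window of each only.
MDM2, internal start (chr12:68808767-68809066): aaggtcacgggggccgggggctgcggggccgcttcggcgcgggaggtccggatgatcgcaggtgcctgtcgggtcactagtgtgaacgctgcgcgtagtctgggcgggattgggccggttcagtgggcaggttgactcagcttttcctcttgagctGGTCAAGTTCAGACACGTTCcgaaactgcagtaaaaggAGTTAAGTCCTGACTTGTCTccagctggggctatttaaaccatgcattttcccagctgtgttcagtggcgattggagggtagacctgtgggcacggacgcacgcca
TP73, internal start (chr1:3690422-3690721): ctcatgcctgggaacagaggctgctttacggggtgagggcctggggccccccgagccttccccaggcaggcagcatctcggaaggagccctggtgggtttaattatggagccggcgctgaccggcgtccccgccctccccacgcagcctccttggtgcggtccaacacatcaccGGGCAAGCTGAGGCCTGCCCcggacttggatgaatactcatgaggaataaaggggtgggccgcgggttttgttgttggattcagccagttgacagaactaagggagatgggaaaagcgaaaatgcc
TP63 (chr3:189631139-189631438): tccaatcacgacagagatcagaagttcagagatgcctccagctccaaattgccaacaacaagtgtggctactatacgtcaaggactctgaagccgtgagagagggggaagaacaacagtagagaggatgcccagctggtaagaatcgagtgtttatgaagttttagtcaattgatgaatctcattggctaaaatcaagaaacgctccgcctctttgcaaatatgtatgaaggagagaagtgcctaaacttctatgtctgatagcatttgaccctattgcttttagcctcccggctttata
MDM4 (chr1:204516156-204516455): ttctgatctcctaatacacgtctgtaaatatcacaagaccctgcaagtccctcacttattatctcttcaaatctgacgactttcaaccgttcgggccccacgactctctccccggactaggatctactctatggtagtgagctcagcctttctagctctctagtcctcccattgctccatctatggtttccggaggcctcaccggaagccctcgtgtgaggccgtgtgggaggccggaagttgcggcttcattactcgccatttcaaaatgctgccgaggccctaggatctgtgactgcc

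Sequencing depth was 32844464 to 35307027 counts per erianin library and 30956443 to 35588728 counts per DMSO library. A count of 3 equals 0.0819 to 0.0866 CPM (counts scaled to TMM library size) in erianin libraries and 0.0882 to 0.0985 CPM in DMSO libraries, a floor that covers counting error only. DMSO replicate 1 stood apart: the share of ribosomal protein genes was 11.5% to 12% in the erianin libraries, 8.54% in DMSO replicate 1 and 12.5% and 12.4% in DMSO replicates 2 and 3. TP63, MDM2, MDM4 and the lists of regulators and shared targets are therefore given with and without it. For other named genes, values without it are given only for some. The 8 B cell markers were all detected, with a summed level of 2336 to 2607 CPM in erianin libraries and 2828 to 3793 CPM in DMSO libraries. T cell markers (1 of 5 with over 3 counts in a library, CD3G and CD2 at 0) summed to at most 0.171 CPM in erianin and 0.0308 CPM in DMSO libraries. Epithelial markers (1 of 5, EPCAM, KRT19 and CDH1 at 0) reached 0.109 CPM in erianin and 0.154 CPM in DMSO libraries. Stromal and endothelial markers (4 of 5, DCN at 0) summed to 0.347 to 0.514 CPM in erianin and 0.131 to 0.339 CPM in DMSO libraries. Myeloid markers (4 of 5) summed to 9.42 to 10.6 CPM in erianin and 4.30 to 7.27 CPM in DMSO libraries, and their part in the results was not tested. In bulk RNA, fewer cells of a type and less RNA per cell cannot be told apart.

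TP63 was lower in each erianin library than in any DMSO library. TP63 (ENSG00000073282, chromosome 3, 189631416 to 189897279, plus strand) had 135, 115 and 120 counts in erianin replicates 1, 2 and 3, and 822, 349 and 405 counts in DMSO replicates 1, 2 and 3. Scaled to library size, these were 3.69, 3.32 and 3.43 CPM with erianin and 27.0, 10.8 and 11.9 CPM with DMSO. The groups did not overlap, the erianin libraries lay close together, and DMSO replicate 1 stood far above the other DMSO libraries. Mean levels were 3.48 ± 0.187 CPM with erianin and 16.6 ± 9.06 CPM with DMSO (SD, n = 3 each), a log2 fold change of -2.25 ± 0.36 (SE). Without DMSO replicate 1 it was -1.69 ± 0.14. The mean of the erianin libraries differed on the log2 scale by -2.96 from DMSO replicate 1, by -1.63 from DMSO replicate 2 and by -1.78 from DMSO replicate 3.

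**Figure D1:**
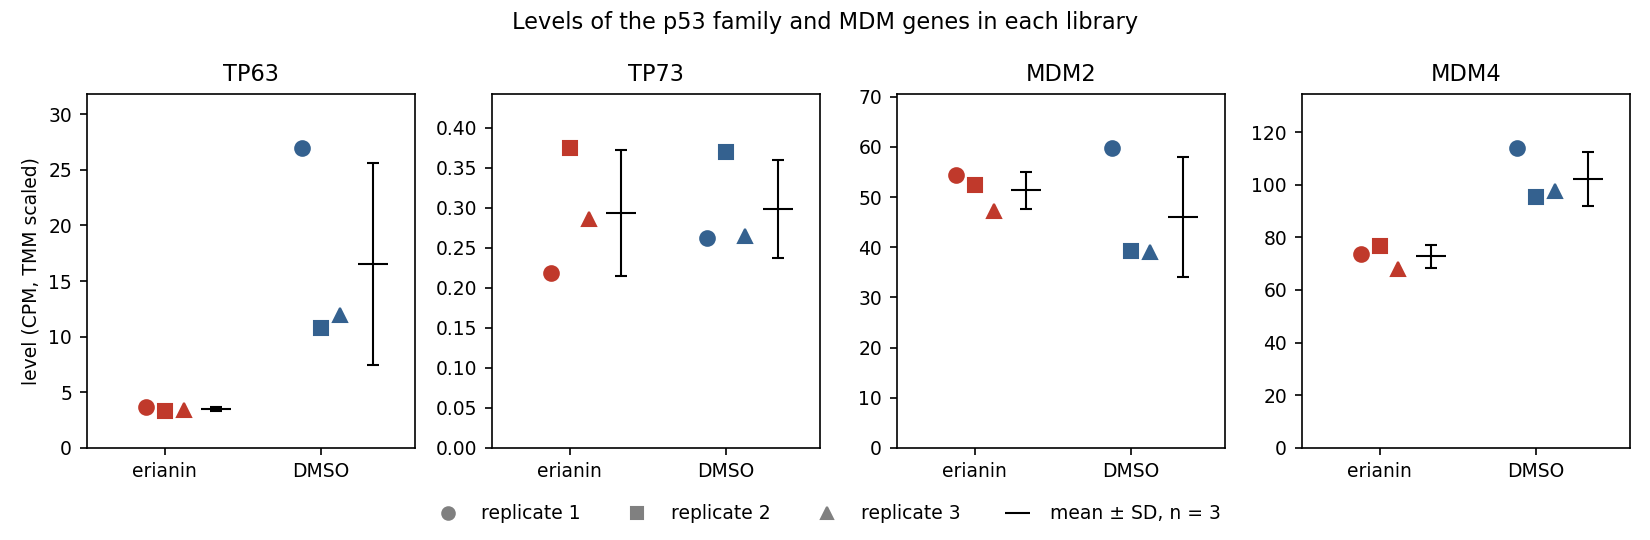
Levels of TP63, TP73, MDM2 and MDM4 (CPM, linear axes from 0) in each of the 3 erianin and 3 DMSO libraries; markers give the replicate number and bars the mean ± SD. TP63 and MDM4 were lower in every erianin library than in any DMSO library, TP73 overlapped at 0.218 to 0.375 CPM, and for MDM2 DMSO replicate 1 (59.9 CPM) lay above all other libraries.

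The spread of TP63 between DMSO libraries was wide for this data set. DMSO replicate 1 lay 1.25 above the mean of DMSO replicates 2 and 3 on the log2 scale, and DMSO replicates 2 and 3 differed by -0.15. The 3 erianin libraries spanned 0.15. Of the 11550 genes tested, 4.89% deviated as far in DMSO replicate 1 in either direction, and of 2314 genes within 2-fold of the mean level of TP63, 4.24% did. With offsets for GC content and transcript length, which remove smooth trends in each library, the deviation of TP63 was 0.94, a distance that 7.21% of tested genes reached. The other members deviated less: MDM2 by 0.61, MDM4 by 0.24 and TP73 by -0.19 without the offsets, and by 0.18, -0.16 and 0.16 with them. GC content of the longest transcript was 42.5% for TP63, 41.9% for MDM2, 42.4% for MDM4 and 61.0% for TP73. With the offsets the log2 fold change of TP63 was -2.22 ± 0.29 with all libraries and -1.84 ± 0.12 without DMSO replicate 1. The source of the deviation was not tested.

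**Figure D2:**
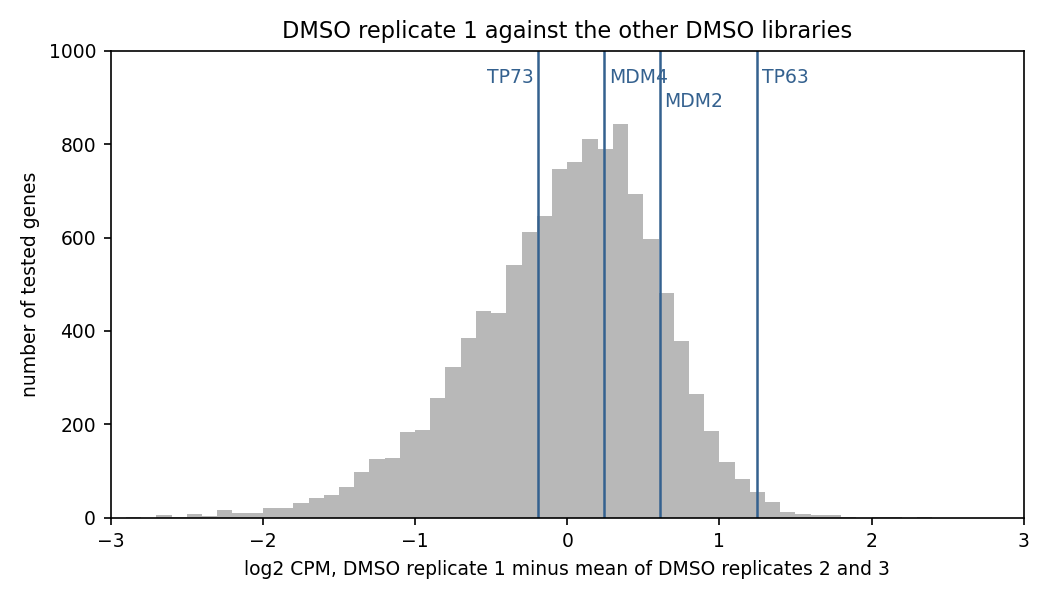
Number of tested genes (y axis) by the difference in log2 CPM between DMSO replicate 1 and the mean of DMSO replicates 2 and 3 (x axis); vertical lines mark the 4 members. TP63, at 1.25, lies in the right tail, and MDM2 (0.61), MDM4 (0.24) and TP73 (-0.19) lie in the body of the distribution.

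TP73 (ENSG00000078900, chromosome 1, 3652520 to 3736201, plus strand) was barely expressed. It had 8, 13 and 10 counts in erianin replicates 1, 2 and 3, and 8, 12 and 9 counts in DMSO replicates 1, 2 and 3, above the floor of 3 counts in every library. These equal 0.293 ± 0.0788 CPM with erianin and 0.299 ± 0.0612 CPM with DMSO (SD, n = 3 each). The groups overlapped, and the log2 fold change was -0.03 ± 0.37, so differences as large as this error, and some larger ones, could go undetected at this depth. TP73 shares 633 of its 6763 exonic bases with TP73-AS1 on the other strand. TP73-AS1 was listed at 0 in all 6 libraries, and the handling of strand is not given, so reads of the pair cannot be told apart.

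MDM2, the ligase, gave a result that turned on the DMSO library. MDM2 (ENSG00000135679, chromosome 12, 68808176 to 68850686, plus strand) had 54.4, 52.3 and 47.3 CPM in erianin replicates 1, 2 and 3, and 59.9, 39.3 and 39.1 CPM in DMSO replicates 1, 2 and 3. The erianin libraries lay above DMSO replicates 2 and 3 and below DMSO replicate 1, so the groups overlapped. Means were 51.3 ± 3.67 CPM with erianin and 46.1 ± 11.9 CPM with DMSO (SD, n = 3 each), a log2 fold change of 0.16 ± 0.18. Without DMSO replicate 1 it was 0.40 ± 0.08, and with the GC content and length offsets 0.30 ± 0.08. An antisense transcript and a pseudogene share 785 and 439 of the 13284 exonic bases of MDM2, so its counts are uncertain to that extent. The gene named CPM, which encodes carboxypeptidase M, shares 133 bases on the other strand and had 7 to 11 counts with erianin and 0 to 3 counts with DMSO.

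MDM4, the partner of MDM2, was lower with erianin. MDM4 (ENSG00000198625, chromosome 1, 204516379 to 204558120, plus strand) had 73.8, 76.6 and 68.0 CPM in erianin replicates 1, 2 and 3, and 114, 95.3 and 97.6 CPM in DMSO replicates 1, 2 and 3. All erianin libraries lay below all DMSO libraries. Means were 72.8 ± 4.39 CPM with erianin and 102 ± 10.3 CPM with DMSO (SD, n = 3 each), a log2 fold change of -0.49 ± 0.11. The difference had the same direction without DMSO replicate 1 (-0.39 ± 0.07) and with the offsets (-0.41 ± 0.08).

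In the fit across all genes, TP63 and MDM4 were called lower at an adjusted p of 0.05, and TP73 and MDM2 were not called. Of all genes tested, 24.2% were called, 11.8% higher and 12.3% lower, and in 23.2% the CPM values of all erianin libraries lay below those of all DMSO libraries, as for TP63 and MDM4. The members were picked with this contrast known, so nothing is read from their count. Without DMSO replicate 1, TP63 and MDM4 were again called lower and MDM2 was called higher, when 55.3% of genes were called. Leaving out any single erianin library ended the call of MDM4, with log2 fold changes of -0.52 to -0.44. In these fits 777, 745 and 1198 genes were called in all (without erianin replicates 1, 2 and 3), against 2791 with all libraries. Without DMSO replicates 2 and 3 the totals were 1794 and 1980. The same totals apply to each call below that ended without a single library. Scaling by total counts alone (-0.38) and the TPM scale with a pseudocount of 1 (-0.18) or 0.1 (-0.21) also ended the call of MDM4. MDM2, called higher without DMSO replicate 1, was also called higher with the offsets, but not with the offsets and replicate block (0.30 ± 0.09). It was called in 3 of 19 alternatives.

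Because MDM2 and MDM4 act as a pair, their ratio was taken within each library, where no scaling between libraries enters. The ratio of the authors' length-scaled values (TPM) was 1.5, 1.39 and 1.41 in erianin replicates 1, 2 and 3, and 1.07, 0.839 and 0.815 in DMSO replicates 1, 2 and 3. The groups did not overlap, and DMSO replicate 1 again lay nearest to the erianin libraries. Means were 1.43 ± 0.0568 with erianin and 0.907 ± 0.139 with DMSO (SD, n = 3 each), a difference of 0.67 on the log2 scale. The ratio of the counts themselves was 0.737, 0.684 and 0.695 in erianin replicates 1, 2 and 3, and 0.525, 0.412 and 0.401 in DMSO replicates 1, 2 and 3, with the same difference of 0.67. Divided by the exonic length of GENCODE 29 (13284 bases for MDM2 and 11008 for MDM4), it was 0.566 to 0.610 in erianin libraries and 0.332 to 0.435 in DMSO libraries. Which of the pair stood higher per length therefore depends on the lengths used, and the lengths behind the authors' TPM values are not known here. This ratio is from the contrast that chose the members and is not tested.

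**Figure D3:**
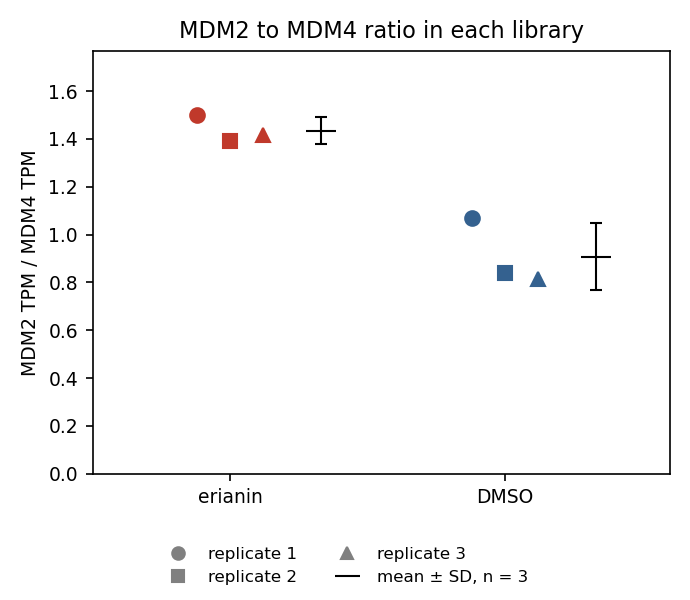
MDM2 TPM divided by MDM4 TPM (linear axis from 0) in each of the 3 erianin and 3 DMSO libraries; bars give the mean ± SD. The erianin libraries lie at 1.39 to 1.5 and the DMSO libraries at 0.815 to 1.07.

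Per length, both MDM genes stood above TP63 and TP63 above TP73 in every library, in TPM and by counts per exonic base. In TPM, erianin libraries held 5.92 to 6.80 of MDM2, 4.18 to 4.82 of MDM4, 0.600 to 0.651 of TP63 and 0.0282 to 0.0497 of TP73. DMSO libraries held 4.68 to 4.73 of MDM2, 4.39 to 5.77 of MDM4, 1.83 to 2.98 of TP63 and 0.0212 to 0.0460 of TP73. With DMSO the TPM ranges of MDM2 and MDM4 overlapped, and the steps to TP63 and to TP73 exceeded the spread. The TPM ratio of TP63 to TP73 was 12.1 to 23.1 in erianin libraries and 39.8 to 140 in DMSO libraries, and by counts per exonic base it was 8.03 to 15.3 in erianin libraries and 26.4 to 93.2 in DMSO libraries. TPM columns summed to 63.6% to 65.2% of the full TPM total in erianin libraries, to 39.2% in DMSO replicate 1 and to 66.7% and 65.7% in DMSO replicates 2 and 3. TPM levels are therefore compared here between genes within libraries. The alternatives on the TPM scales do compare libraries and leave these unequal sums uncorrected. What that adds to the calls that ended on the TPM scales was not tested. Counts per gene do not tell full-length from N-terminally shortened forms of p63 or p73, nor splice forms of MDM2 and MDM4.

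The neighbours of the members on their chromosomes did not all move with them. LPP, the nearest tested gene on the lower side of TP63 and 740745 bases away, had 14.2, 15.1 and 13.6 CPM with erianin and 39.1, 25.2 and 22.9 CPM with DMSO. It fell (log2 fold change -1.02 ± 0.21, adjusted p = 0.014), and it too was highest in DMSO replicate 1. IL1RAP, on the higher side, had 4.32 ± 0.341 CPM with erianin and 4.20 ± 1.2 CPM with DMSO (adjusted p = 0.91). SLC35E3, 14212 bases from MDM2, fell to 58.7 ± 3.45 CPM with erianin, against 87.4 ± 7.64 CPM with DMSO (-0.57 ± 0.11, adjusted p = 0.012), while CPSF6 on the other side was not called (0.13 ± 0.13, adjusted p = 0.52). CPSF6 had 190, 190 and 187 CPM with erianin and 207, 160 and 152 CPM with DMSO, and leaving out DMSO replicate 1 it was called higher (0.29, adjusted p = 0.00025). Beside MDM4, PIK3C2B was not called (adjusted p = 0.95), and the low-level LRRN2 rose to 1.05 ± 0.371 CPM with erianin, against 0.239 ± 0.0554 CPM with DMSO (2.13 ± 0.38, adjusted p = 0.0094). TPRG1L and LRRC47, beside TP73, were not called (adjusted p = 0.81 and 0.98), and LRRC47 had log2 fold changes of 0.0081 with all libraries and -0.17 without DMSO replicate 1 (adjusted p = 0.038). The calls of LPP and SLC35E3 ended without any single erianin library (adjusted p up to 0.071 and 0.069), and that of SLC35E3 also on both TPM scales (-0.28 and -0.30).

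Genes with the most similar profile were ranked by the root mean square difference of centred log2 CPM over the 6 libraries. Nearest to TP63 were OTP, RGS6, ROCK1P1, RASSF6 and JAZF1, at 0.27 to 0.30. RASSF6 had 13.0, 15 and 13.9 CPM with erianin and 62.7, 39.4 and 38.3 CPM with DMSO, with DMSO replicate 1 highest as for TP63. Nearest to MDM2 were CCZ1B, THAP12, DNM1L, RAD23B and ZBTB26, at 0.026 to 0.035, and CCZ1B has a near-identical copy that can share its reads. Nearest to MDM4 were PITPNB, STAG1, DERL1, ELP3 and MYCBP2, at 0.017 to 0.035. Nearest to TP73 were DOCK3, CLDN20, FAM174B, SRR and IFITM3, at 0.069 to 0.11.

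Of 20 epithelial genes linked to p63, listed without regard to the direction of control, 14 were too low to be tested. Among these were KRT5 and KRT14, keratins of the basal layer that were named after their values were seen, at 0.0943 ± 0.0175 and 0.0667 ± 0.0449 CPM with erianin and 0.0317 ± 0.0329 and 0 CPM with DMSO, near or under the floor. Of the 6 tested, 1 rose, 1 fell and 4 were not called (median 0.33), beside 24.2% of all genes called. SFN, which encodes 14-3-3 sigma, rose to 0.367 ± 0.0183 CPM with erianin, against 0.104 ± 0.0397 CPM with DMSO (adjusted p = 0.021). TFAP2A, a transcription factor gene, fell to 3.49 ± 0.619 CPM with erianin, against 6.94 ± 2.59 CPM with DMSO (adjusted p = 0.041). Both were named after their values were seen, and both calls ended without any single erianin library (adjusted p up to 0.088 and 0.16), that of SFN also without DMSO replicate 2 or 3 and with no filter, and that of TFAP2A with total counts and on both TPM scales. The replicate block ended both. TFAP2A was highest in DMSO replicate 1 (9.92, 5.33 and 5.56 CPM in DMSO replicates 1, 2 and 3), and without that library its log2 fold change was -0.63 (adjusted p = 0.0034).

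Other lists cover the genes that act on the members or with them. Of 13 tested ubiquitin ligases and deubiquitinases of p53, 3 fell and 10 were not called, and the list median was -0.31, beside -0.0033 for all genes tested, of which 24.2% were called. HUWE1, a large ubiquitin ligase that can act on p53, fell to 501 ± 14.4 CPM with erianin, against 981 ± 232 CPM with DMSO (-0.97 ± 0.17, adjusted p = 0.0084). It had 1245, 887 and 810 CPM in DMSO replicates 1, 2 and 3, and -0.75 ± 0.06 without DMSO replicate 1. USP4, a deubiquitinase, had 69.1, 70.2 and 69.4 CPM with erianin and 95.5, 92.4 and 93.5 CPM with DMSO, a narrow and separate pair of ranges (-0.43 ± 0.09, adjusted p = 0.015). OTUB1, which blocks ubiquitin transfer to p53, fell by 0.37 (adjusted p = 0.046). ARIH2, a ligase, had a log2 fold change of -0.38 ± 0.13 (adjusted p = 0.070), and without DMSO replicate 1 it was called lower at -0.23 (adjusted p = 0.0020). Without DMSO replicate 1 the list held 1 higher and 5 lower genes and a median of -0.08, when 27.8% of all genes were called higher and 27.4% lower. Leaving out erianin replicate 1 or 2 ended all 3 calls (adjusted p up to 0.056 for HUWE1, 0.098 for USP4 and 0.22 for OTUB1); USP4 and OTUB1 also lost theirs without erianin replicate 3 or DMSO replicate 2, and OTUB1 without DMSO replicate 3. The replicate block and both TPM scales ended the calls of USP4 (-0.15 and -0.16 on TPM) and OTUB1 (-0.10 and -0.11 on TPM), and OTUB1 also lost its call with upper-quartile scaling, total counts, no filter and the filter at 1 CPM. COP1 and USP2, named for this value, were listed at 0 in all libraries, which is not read as absence because genes renamed between annotations can appear so.

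Of 17 tested genes for proteins that bind MDM2, 1 rose, 2 fell and 14 were not called (median -0.05), beside 24.2% of all genes called. RASSF1, a scaffold that can promote the self-destruction of MDM2, had 125, 121 and 137 CPM with erianin and 193, 234 and 247 CPM with DMSO (-0.82 ± 0.12, adjusted p = 0.0056). CDKN2A, whose ARF product holds MDM2 in check, fell to 237 ± 23.8 CPM with erianin, against 354 ± 22.5 CPM with DMSO (-0.58 ± 0.11, adjusted p = 0.012); its counts also include the transcript of the CDK inhibitor p16. PSMD10, which encodes gankyrin, a protein that increases MDM2 activity, rose to 36.6 ± 2.36 CPM with erianin, against 24.6 ± 3.29 CPM with DMSO (0.57 ± 0.13, adjusted p = 0.021). UBE2D2, a ubiquitin-conjugating enzyme used by MDM2, had a log2 fold change of -0.30 ± 0.09 (adjusted p = 0.053), and without DMSO replicate 1 it was called lower at -0.25 (adjusted p = 0.00095). The list held 6 higher and 4 lower genes without DMSO replicate 1, with a median of 0.10, beside 55.3% of all genes called. The call of CDKN2A ended without erianin replicate 1 or 2 (adjusted p up to 0.079), and that of PSMD10 without any single erianin library or DMSO replicate 2 (adjusted p up to 0.097). On both TPM scales the calls of RASSF1 (-0.53 and -0.53), CDKN2A (-0.31 and -0.31) and PSMD10 (0.81 and 0.85) ended.

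Of 17 tested kinases and phosphatases acting on p53 or the MDM proteins, 2 rose, 5 fell and 10 were not called (median -0.18), beside 24.2% of all genes called. PRKDC, the DNA-dependent protein kinase, had 544, 568 and 539 CPM with erianin and 1038, 934 and 904 CPM with DMSO (-0.80 ± 0.10, adjusted p = 0.0033). ATM, the kinase of the double-strand break response, fell to 93.9 ± 7.17 CPM with erianin, against 142 ± 11.9 CPM with DMSO (-0.60 ± 0.11, adjusted p = 0.011). AKT2 and CSNK1E, named after their values were seen, were also among the falls (adjusted p = 0.032 and 0.034). The log2 fold change of CSNK1E was -0.53 with all libraries and -0.65 without DMSO replicate 1. CSNK1A1, which encodes casein kinase 1 alpha, a binding partner of MDM4, rose to 90.6 ± 3.84 CPM with erianin, against 59.1 ± 5.75 CPM with DMSO (0.62 ± 0.11, adjusted p = 0.0091). DYRK2, a kinase that can phosphorylate p53, rose to 54.0 ± 1.59 CPM with erianin, against 41.9 ± 0.994 CPM with DMSO (0.37 ± 0.09, adjusted p = 0.029). Leaving out DMSO replicate 1 gave 3 higher and 8 lower, beside 55.3% of all genes called. Without erianin replicate 1 or 2 the calls of ATM, CSNK1A1, DYRK2, AKT2 and CSNK1E ended (adjusted p up to 0.061, 0.060, 0.13, 0.16 and 0.15), and DYRK2, AKT2 and CSNK1E lost theirs also without erianin replicate 3, DMSO replicate 2 or DMSO replicate 3. Both TPM scales ended the calls of all 6 kinase genes named here, PRKDC (-0.52 on each) and ATM (-0.30 and -0.32) included. The calls of AKT2 and CSNK1E also ended with upper-quartile scaling and with total counts, and those of AKT2 and DYRK2 with no filter and with the replicate block.

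Regulators of the p63 and p73 proteins included 4 that fell and 1 that rose among 15 tested, with 10 not called (median -0.07), beside 24.2% of all genes called. RNF144B, a ubiquitin ligase for p63 and p73, had 16.1, 19.6 and 16.8 CPM with erianin and 36.5, 37.8 and 36.4 CPM with DMSO (-1.08 ± 0.12, adjusted p = 0.0022). WWOX, which binds p73, fell to 14.5 ± 0.917 CPM with erianin, against 26.8 ± 3.68 CPM with DMSO (-0.89 ± 0.14, adjusted p = 0.0056). HECW2, a ligase that stabilises p73, and PPP1R13L, which encodes iASPP, an inhibitor of the p53 family, fell by 0.81 and 0.84 on the log2 scale (adjusted p = 0.0094 and 0.0095). NQO1, a quinone reductase that can protect p73 from degradation, rose by 1.23 ± 0.25 (adjusted p = 0.013) and was named after its value was seen. Its rise was 0.99 ± 0.09 without DMSO replicate 1. Leaving out DMSO replicate 1 gave 6 higher and 5 lower, beside 55.3% of all genes called. The call of HECW2 ended without erianin replicate 1 or 3, that of PPP1R13L without erianin replicate 1 or 2 (adjusted p up to 0.061 for each), and that of NQO1 without any single erianin library (adjusted p up to 0.059). On both TPM scales the calls of RNF144B (-0.77 and -0.80), HECW2 (-0.27 and -0.48) and PPP1R13L (-0.48 and -0.54) ended, as did that of NQO1 with a pseudocount of 0.1 (1.55).

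Of 20 tested target genes shared by the family, 7 rose, 2 fell and 11 were not called (median 0.06), beside 24.2% of all genes called. Leaving out DMSO replicate 1 gave 9 higher and 8 lower, beside 55.3% of all genes called. CDKN1A, which encodes p21, PLK3 and SESN1 rose (2.38, 1.28 and 0.77, adjusted p = 0.0016, 0.0029 and 0.0056), and DDB2, a damage recognition gene, fell to 54.0 ± 3.20 CPM with erianin, against 94.0 ± 11.5 CPM with DMSO (-0.80 ± 0.12, adjusted p = 0.0058). The call of DDB2 ended on both TPM scales (-0.50 and -0.52).

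**Figure D4:**
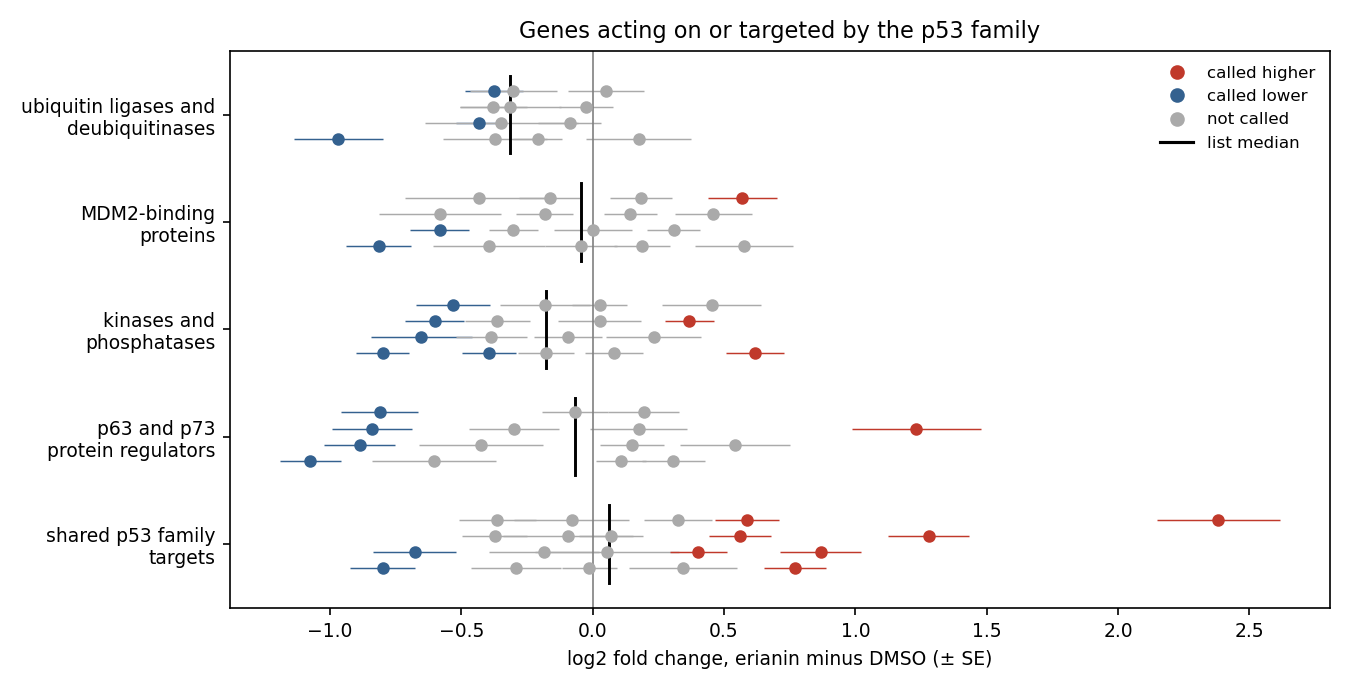
Log2 fold change, erianin minus DMSO, with its SE for each tested gene of 5 lists (x axis); red points were called higher, blue points lower and grey points were not called, and black bars mark list medians. The medians run from -0.31 for ubiquitin ligases and deubiquitinases to 0.06 for shared targets.

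**Figure D5:**
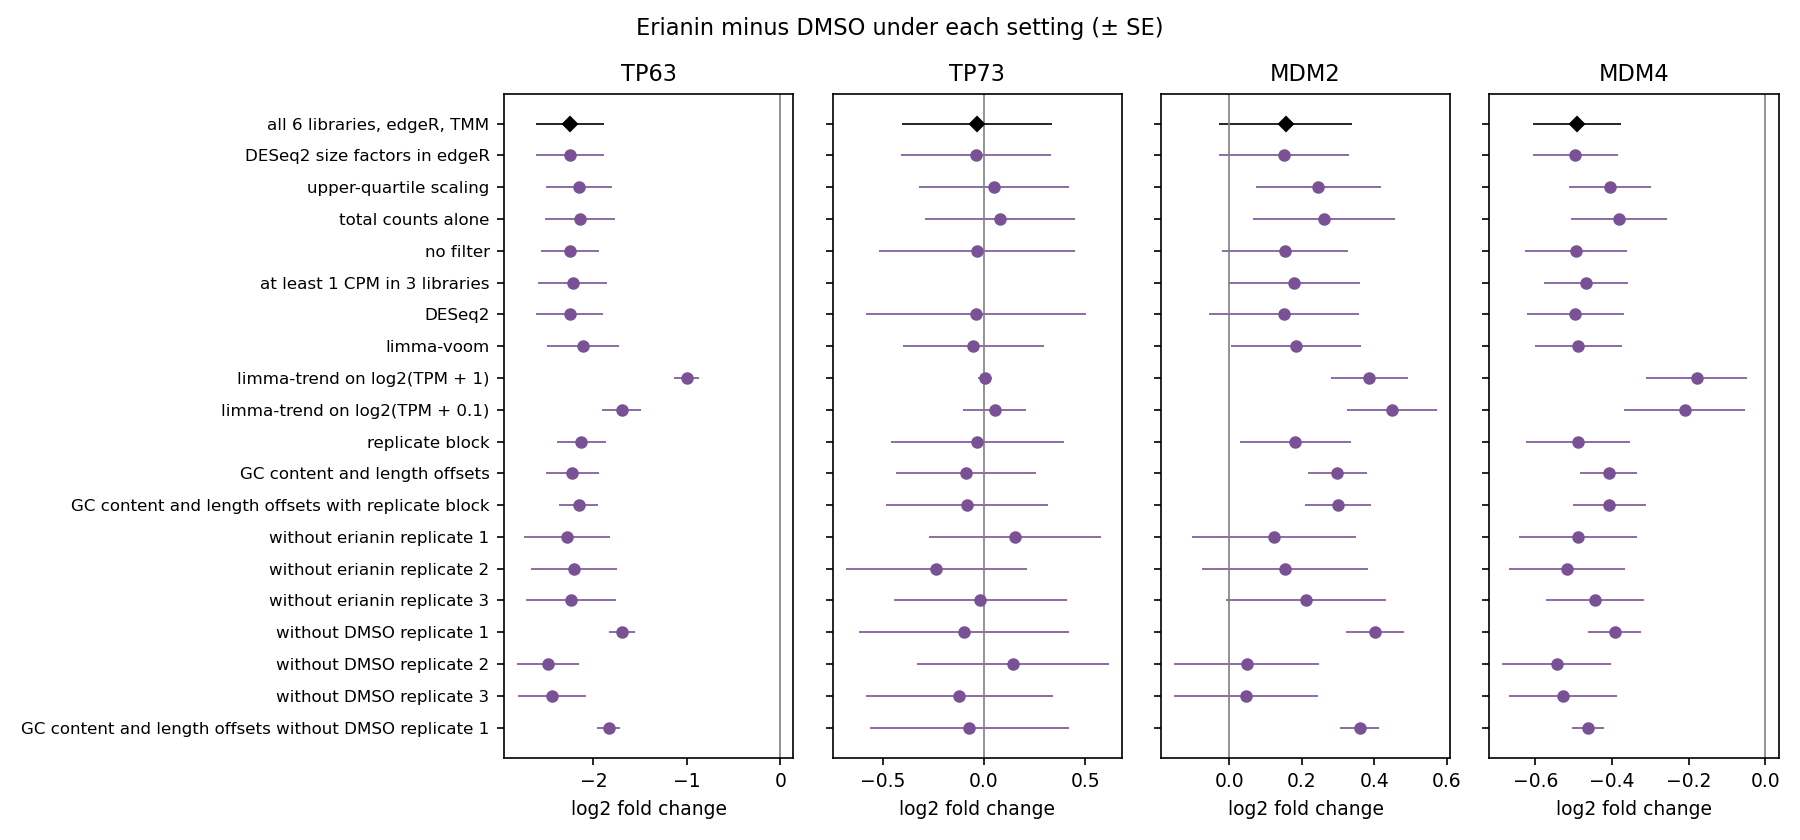
Log2 fold change, erianin minus DMSO, with its SE for each member (panels, each with its own x axis) under every setting tried (y axis). TP63 stayed between -2.49 and -1.0, MDM4 between -0.54 and -0.18 and MDM2 between 0.05 and 0.45, while TP73 changed sign between settings.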

How the data were processed

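RNA sequencing libraries of 3 erianin and 3 DMSO samples were compared. The authors deposited gene counts and, in a separate table, TPM, a length-scaled abundance. Per the submitters' processing notes, the tools included StringTie 2.2.1, featureCounts 2.0.1, STAR 2.7.10 and fastp 0.23.2, with the GRCh38 build. The strand setting is not given in the sources used here. The 2 tables differed in 7 gene symbols, and 61 repeated symbols were left out.

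The counts were tested with edgeR 4.0.16 (quasi-likelihood F test, TMM scaling, filterByExpr) in R 4.3.3 on 11550 genes, with Benjamini-Hochberg adjustment and a threshold of 0.05; every adjusted p is from this test. SE is the log2 fold change divided by the square root of F. CPM values use TMM library sizes, with a pseudocount of 0.1 where libraries are set against each other on the log2 scale. Coordinates are from GENCODE 29. Members and lists were chosen with earlier results of these data known.

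Named genes were the members, up to 4 genes per list with the smallest p, the nearest tested gene on each side and any gene overlapping exons, and the 5 genes nearest in profile. Exceptions are marked in the text, and 1 gene counted among the kinases is not reported here. Alternatives were other scalings and filters, DESeq2 1.42.0, limma 3.58.1 (voom, and log2 TPM with pseudocounts of 1 and 0.1), a replicate block, GC content and length offsets (11404 genes, smoothed with mgcv 1.9.3) and each library left out. The offsets without DMSO replicate 1 were added after seeing the data. The main edgeR fit, DESeq2 and voom were run on simulated counts without a library that deviated like DMSO replicate 1. The other settings were not run on simulated counts.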

Additional observations from a re-analysis of the deposited data

How the results depend on the processing

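Over 19 alternatives the log2 fold change of TP63 ran from -2.49 to -1.0, that of MDM4 from -0.54 to -0.18 and that of MDM2 from 0.05 to 0.45, and over 18 that of TP73 from -0.23 to 0.15. These ranges describe values that chose the members and support no call. Values that moved by more than the spread were -1.69 without DMSO replicate 1 for TP63, and -1.0 and -1.70 for TP63 and -0.18 and -0.21 for MDM4 on log2 TPM with pseudocounts of 1 and 0.1, and 0.45 for MDM2 with 0.1. These scales shifted the median of all genes by 0.20 and 0.28, and total counts by 0.11. Relative to the shift TP63 stood at -1.20, -1.97 and -2.25, MDM4 at -0.38, -0.49 and -0.49 and MDM2 at 0.18, 0.17 and 0.16. With erianin TP63 had 0.600 to 0.651 TPM, less than the pseudocount of 1, which by arithmetic shrinks its log2 fold change on that scale. Leaving out 1 library gave -2.49 to -1.69 for TP63, -0.23 to 0.15 for TP73, 0.05 to 0.40 for MDM2 and -0.54 to -0.39 for MDM4.

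Genes called numbered 2791 in all, 1368 higher and 1423 lower. All calls came to 1670 and 1508 on TPM with pseudocounts of 1 and 0.1, 4211 with the offsets and 7227 with the offsets without DMSO replicate 1. Higher calls were 2974 in that last setting. Lower calls were 918 with total counts, 262 and 245 on TPM, 2457 with the offsets and 4253 with the offsets without DMSO replicate 1. Leaving out 1 library gave 745 to 6505 calls, 407 to 3278 higher and 338 to 3227 lower.

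The ligase list, with 3 calls, had 1 on each TPM scale, 1 with the replicate block, 5 with the offsets, 9 with the offsets without DMSO replicate 1 and 0 to 6 with a library left out. The MDM2-binding list, with 3, had 6 with upper-quartile scaling, 6 with total counts, 7 with DESeq2, 1 on each TPM scale, 7 with the offsets, 5 with the offsets and replicate block, 12 with the offsets without DMSO replicate 1 and 1 to 10 with a library left out. The kinase list, with 7, had 4 with upper-quartile scaling, 4 with total counts, 0 on each TPM scale, 12 with the offsets without DMSO replicate 1 and 1 to 11 with a library left out. The p63 and p73 regulators, with 5, had 3 and 2 on TPM, 8 with the offsets, 12 with the offsets without DMSO replicate 1 and 2 to 11 with a library left out. The shared targets, with 9, had 5 on each TPM scale, 19 with the offsets without DMSO replicate 1 and 4 to 17 with a library left out. Of 625 values of other named genes under alternatives, 499 kept their side of the threshold, 111 lost the call, 13 gained one and 2 reversed. Both reversals were of LRRC47 (-0.17 without DMSO replicate 1 and -0.16 with the offsets as well, and -0.17 to 0.13 with a library left out). A reversal was counted only where the main fit or the alternative made a call. Changes of sign in genes called in neither are therefore among the 499. Apart from fewer genes or libraries where the setting removes them, the cause of the differences between settings was not tested.

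The labels do not say whether replicate numbers pair the samples. Deviations of same-numbered libraries from their group mean correlated at 0.17, -0.14 and 0.23, and those of other pairs at -0.29 to 0.25. With 3 libraries per group and DMSO replicate 1 far from the others, these values can neither show nor exclude pairing. With the replicate block the log2 fold change of TP63 was -2.13, of TP73 -0.03, of MDM2 0.18 and of MDM4 -0.49. Depth limits TP73, with 8 to 13 counts per library.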
